A study of Mus musculus with 6 samples.

Results

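The granule genes of granulocyte precursors and the lysozymes are 10 of the 22248 genes listed for each library: *Mpo*, *Elane*, *Prtn3*, *Ctsg*, *Ms4a3*, *Lyz1*, *Lyz2*, *Ngp*, *Camp* and *Retnlg*. They were taken by gene name, and they were chosen by their FPKM in the CITED2-deficient against the control columns of these same libraries. Their difference between the genotypes is therefore given as values without a test. The study examined CITED2, a transcriptional co-regulator, in mouse macrophages. RNA was sequenced from bone-marrow-derived macrophages (BMDMs), which are bone marrow cells grown in macrophage colony-stimulating factor (M-CSF) until macrophages predominate, here without a further stimulus. The 3 control libraries came from *Lyz2cre* mice, which carry 1 Cre allele in the *Lyz2* locus and intact *Cited2*. The 3 CITED2-deficient libraries came from *Cited2 fl/fl:Lyz2cre* mice, which carry 2 floxed *Cited2* alleles and the same single Cre allele. All mice were C57BL/6, and the labels give postnatal week 10, whereas the methods give a slightly younger age for the marrow donors. Cre is driven by the *Lyz2* promoter, so *Cited2* is lost only in cells that have switched this gene on, and every library carries an altered *Lyz2* allele. The labels do not say that replicates came from separate animals, so p-values measure only the spread between these libraries.

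Granulocytes store antimicrobial proteins in granules that are filled in sequence during maturation in the marrow. Azurophil granules are filled first, in promyelocytes, with myeloperoxidase and the serine proteases. Specific and gelatinase granules follow, with lactoferrin, cathelicidin and matrix metalloproteinases. Transcription of these genes depends on C/EBP factors, PU.1, RUNX1, MYB and GFI1, and it ceases as the cells mature or take the monocyte and macrophage path. Lysozymes cut the peptidoglycan of bacterial walls, and the mouse has a pair of adjacent genes for them, *Lyz1*, named for Paneth cells, and *Lyz2*, named for macrophages.

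The promoters of the azurophil granule genes and of the lysozyme pair are shown because these genes were lower together in the deficient libraries. Each line gives the reference sequence 5′ to 3′ on the gene's strand (build GRCm38.p6), before the RefSeq start and free of the gene's annotated exons. The annotation of *Prtn3* begins further 5′, at 79874476, so its line lies within the annotated gene. Capitals mark 4 short motifs searched on both strands, namely TTNNGNAA for C/EBP, GAGGAA for PU.1, TGTGGT for RUNX, and TAACNG or CAACNG for MYB.
Mpo (chr11:87793534-87793580, plus strand): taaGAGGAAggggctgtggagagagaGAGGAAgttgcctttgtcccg
Elane (chr10:79886062-79886246, plus strand): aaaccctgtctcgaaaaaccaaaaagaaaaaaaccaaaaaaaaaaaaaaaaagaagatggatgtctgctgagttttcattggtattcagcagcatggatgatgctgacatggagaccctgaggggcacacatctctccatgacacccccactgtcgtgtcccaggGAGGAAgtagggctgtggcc
Prtn3 (chr10:79879417-79879613, plus strand): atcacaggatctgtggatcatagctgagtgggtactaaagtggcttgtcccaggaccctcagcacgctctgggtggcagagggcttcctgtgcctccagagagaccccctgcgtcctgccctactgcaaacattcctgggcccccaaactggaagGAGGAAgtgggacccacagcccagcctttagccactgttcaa
Ctsg (chr14:56102575-56102824, minus strand): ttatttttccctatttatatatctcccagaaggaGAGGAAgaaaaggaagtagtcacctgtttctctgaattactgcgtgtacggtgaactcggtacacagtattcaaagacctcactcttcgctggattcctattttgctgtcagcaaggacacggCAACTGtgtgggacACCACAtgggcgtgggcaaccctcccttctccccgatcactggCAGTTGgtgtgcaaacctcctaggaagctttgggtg
Lyz1 (chr10:117292869-117293118, minus strand): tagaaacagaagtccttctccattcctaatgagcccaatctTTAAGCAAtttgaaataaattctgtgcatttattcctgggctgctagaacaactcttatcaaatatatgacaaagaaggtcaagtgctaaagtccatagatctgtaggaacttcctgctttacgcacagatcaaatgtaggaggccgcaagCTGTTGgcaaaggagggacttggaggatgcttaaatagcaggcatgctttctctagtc
Lyz2 (chr10:117282322-117282522, minus strand): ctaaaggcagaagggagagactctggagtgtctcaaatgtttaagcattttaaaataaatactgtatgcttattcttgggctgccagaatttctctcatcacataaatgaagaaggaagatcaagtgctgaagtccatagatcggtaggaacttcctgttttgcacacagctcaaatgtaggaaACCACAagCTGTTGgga

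Windows of 300 bases around the start were found for all 10 genes. The PU.1 letters GAGGAA occurred in the windows of *Mpo*, *Elane*, *Prtn3*, *Ctsg* and *Ms4a3*, against 28.3% of all 32851 windows, and in none of the other 5. The C/EBP letters occurred in 5 of the 10, *Ms4a3*, *Lyz1*, *Lyz2*, *Ngp* and *Retnlg*, against 40.7% of all windows. The MYB letters occurred in 7 of 10 against 49.7%, and the RUNX letters in 2 of 10, *Ctsg* and *Lyz2*, against 16.8%. Some of these matches lie outside the stretches printed. A match is a description of letters and not of binding. The *Lyz1* and *Lyz2* windows are 83.6% identical over 298 aligned bases, and their shared CTGTTG, the reverse complement of a MYB form, stands in both lines.

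*Cited2* was lower in the libraries labelled CITED2-deficient, with 71.7, 79.3 and 75.5 FPKM (fragments per kilobase of transcript, scaled to library size) in the controls and 9.27, 7.22 and 7.53 FPKM in the deficient libraries. The libraries held 17289286 to 18952077 gene fragments in the controls and 22583995 to 26100410 in the deficient group, as recovered from the FPKM. A gene was called when it passed an adjusted p of 0.05 in limma with Benjamini-Hochberg adjustment over the 11687 genes whose mean FPKM reached 1. By this rule 34.6% of tested genes were called lower and 16.7% higher in the deficient libraries, and the groups did not overlap for 59.9%. This balance depends on the scaling, since median-ratio scaling of the libraries gave 2576 genes lower and 2628 higher in place of 4044 and 1950. Across tested genes the log2 fold change had a median of -0.10. Macrophage markers were abundant in both groups, with *Adgre1*, which encodes F4/80, at 2214 ± 20.9 and 1776 ± 34.9 FPKM (SD, n = 3).

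All 10 genes passed the filter. In the limma fit, made on the same contrast that chose them, 9 were past the threshold as lower and 1 as higher. This stands beside 34.6% and 16.7% of tested genes, and from this count nothing is read. Of the 10, *Ctsg* and *Ms4a3* were under 1 FPKM in the deficient libraries and *Retnlg* was under 1 FPKM in the controls, so these passed the filter through the group where they were high. The 4 azurophil granule genes among them were 5.66-fold to 8.31-fold lower, the lysozymes 3.21-fold and 5.03-fold lower, *Ms4a3* 3.07-fold lower, *Camp* 2.04-fold lower and *Ngp* 1.26-fold lower. *Retnlg* was 6.93-fold higher.

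**Figure D1:**
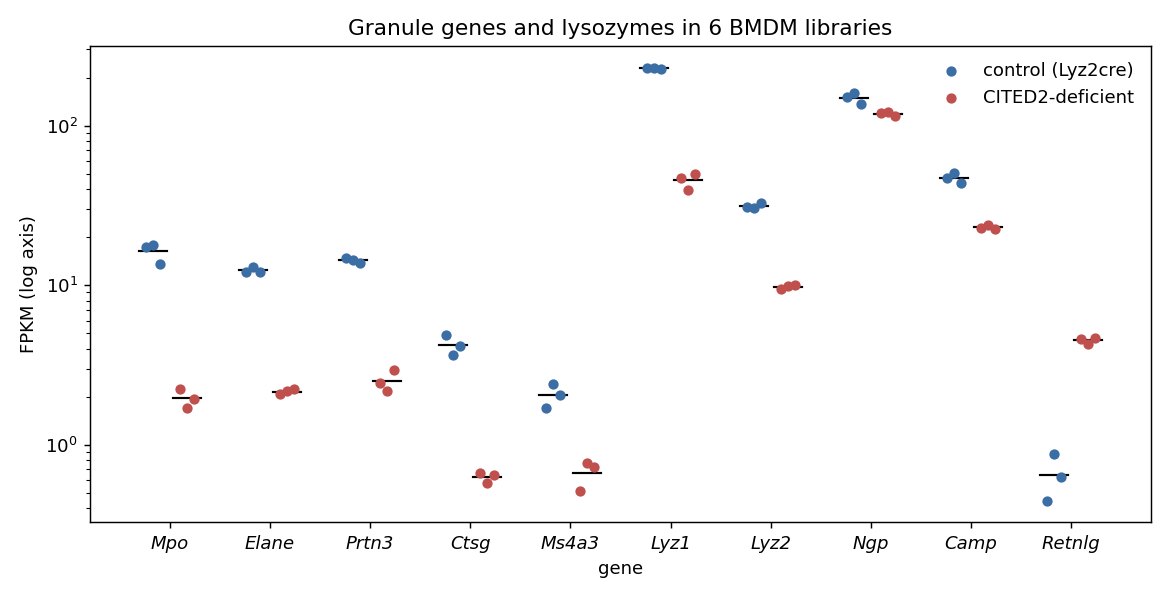
FPKM on a log axis of each gene in each of the 6 libraries, with a bar at the group mean. The blue control points lie above the red CITED2-deficient points for 9 genes, closest for *Ngp* (149 against 119 FPKM), and below them for *Retnlg* (0.649 against 4.50 FPKM).

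*Mpo* encodes myeloperoxidase, the heme enzyme that makes hypochlorous acid in the phagosome. Its level was 17.4, 17.8 and 13.6 FPKM in the controls and 2.24, 1.70 and 1.92 FPKM in the deficient libraries. The means were 16.2 ± 2.32 and 1.95 ± 0.271 FPKM (SD, n = 3), a ratio of 8.31. The lowest control library was 6.05 times the highest deficient library, and control replicate 3 was the lowest of its group. On the log2(FPKM + 1) scale, which understates the change of low genes, the difference was -2.54 (SE 0.12). The level rests on 334 to 427 fragments per control library and 50 to 74 per deficient library. Among the genes listed, *Mpo* ranked between 5339 and 6190 in the controls and between 10232 and 10649 in the deficient libraries. *Mpo* (ENSMUSG00000009350) lies on chromosome 11, 87793581 to 87804413, in mm10.

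*Elane* and *Prtn3* encode neutrophil elastase and proteinase 3, serine proteases that cleave matrix and bacterial proteins. *Elane* stood at 12.1, 12.9 and 12.1 FPKM in the controls and 2.08, 2.16 and 2.22 FPKM in the deficient libraries, a ratio of means of 5.74 and a log2 difference of -2.08 (SE 0.07). *Prtn3* stood at 14.7, 14.4 and 13.7 FPKM against 2.45, 2.18 and 2.93 FPKM, a ratio of 5.66 and a log2 difference of -2.12 (SE 0.09). Both genes were tightly grouped within each genotype, with gaps between the groups of 5.44-fold and 4.68-fold. They sit next to each other on chromosome 10, *Prtn3* (ENSMUSG00000057729) at 79874476 to 79883174 and *Elane* (ENSMUSG00000020125) at 79886247 to 79888215. Within a library, the ratio of *Elane* to *Prtn3* FPKM was 0.824, 0.900 and 0.879 in the controls and 0.850, 0.993 and 0.756 in the deficient libraries. These ranges overlapped.

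*Ctsg* encodes cathepsin G, another serine protease of the same granule. It was the least abundant of the 4, at 4.85, 3.66 and 4.16 FPKM in the controls and 0.661, 0.572 and 0.644 FPKM in the deficient libraries. The ratio of means was 6.75, on 49 to 71 fragments per control library and 10 to 13 per deficient library. Because the deficient values are below 1 FPKM, the scale matters here. The log2 difference was -1.68 (SE 0.12) with 1 FPKM added and -2.57 with 0.1 FPKM added. *Ctsg* (ENSMUSG00000040314) lies apart from the others on chromosome 14, 56099881 to 56102574.

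Summed over the 4 azurophil genes, the controls held 47.1 ± 3.10 FPKM and the deficient libraries 7.25 ± 0.572 FPKM (SD, n = 3), a ratio of 6.49. The ratio of *Mpo* to *Elane* FPKM was 1.44, 1.37 and 1.12 in the controls and 1.08, 0.789 and 0.864 in the deficient libraries. The groups nearly met, at 1.12 and 1.08. The deficient ratios rest on few fragments, 74, 50 and 65 for *Mpo* and 52, 48 and 57 for *Elane*. Whether the 2 genes differed in their change was not tested. In RNA from a whole culture, fewer cells that express a gene and less RNA of it per cell cannot be told apart.

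*Ms4a3* encodes a tetraspan membrane protein that is expressed in granulocyte and monocyte progenitors and is lost in mature macrophages. It was scarce in every library, at 1.69, 2.40 and 2.05 FPKM in the controls and 0.509, 0.764 and 0.727 FPKM in the deficient libraries. The means were 2.04 ± 0.353 and 0.667 ± 0.138 FPKM (SD, n = 3), a ratio of 3.07, from 37 to 48 against 15 to 22 fragments. The groups were 2.21-fold apart at their nearest libraries, the narrowest such gap after *Ngp* and *Camp*. The log2 difference was -0.87 (SE 0.15), or -1.49 with 0.1 FPKM added.

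*Lyz1* was the most abundant of the 10 genes in the controls, at 229, 231 and 226 FPKM, and stood at 47.1, 39.7 and 49.7 FPKM in the deficient libraries. Its ratio of means was 5.03 and its log2 difference -2.31 (SE 0.07), on 5045 to 5474 fragments per control library and 1133 to 1637 per deficient library. *Lyz2*, the lysozyme usually used to mark macrophages, was lower at 30.8, 30.6 and 32.5 FPKM in the controls and 9.39, 9.82 and 10.0 FPKM in the deficient libraries. Its ratio of means was 3.21 and its log2 difference -1.59 (SE 0.05). In rank among all genes listed, *Lyz1* moved from between 457 and 465 to between 2353 and 2884. *Lyz2* moved from between 3576 and 3731 to between 6913 and 7144.

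The pair lies side by side on the minus strand of chromosome 10, *Lyz2* (ENSMUSG00000069516) at 117277331 to 117282321 and *Lyz1* (ENSMUSG00000069515) at 117287797 to 117292868. The ratio of *Lyz1* to *Lyz2* within a library was 7.46, 7.54 and 6.97 in the controls and 5.02, 4.04 and 4.94 in the deficient libraries, so *Lyz1* was proportionally lower still than *Lyz2*. Their transcripts are 96.0% identical over 1262 aligned bases, and of all stretches of 75 bases 6.2% of *Lyz1* and 6.0% of *Lyz2* occur in both. For stretches of 50 bases the shares were 16.1% and 15.4%. Fragments could thus be split between the 2 genes in part, and how the counting treated them was not tested. The sum of both genes was 260 ± 1.49 FPKM in the controls and 55.3 ± 5.20 FPKM in the deficient libraries (SD, n = 3), a ratio of 4.71. A shift of fragments from 1 gene to the other would leave this sum nearly alone, but discarding shared fragments would lower it. No other of the 10 transcripts shared such a stretch. The Cre insertion alters 1 *Lyz2* allele in both genotypes, and what the remaining and the altered alleles each contribute cannot be told apart here.

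*Ngp*, which encodes the neutrophilic granule protein of the cystatin superfamily, was at 151, 160 and 136 FPKM in the controls and 120, 121 and 115 FPKM in the deficient libraries. Its ratio of means was 1.26, its nearest libraries were 1.12-fold apart and its log2 difference was -0.33 (SE 0.06). Relative to the median of all genes this leaves a smaller step, and after scaling each library by the median ratio the difference was -0.23. *Camp* encodes the precursor of the antimicrobial peptide cathelicidin. It was at 47.0, 50.5 and 43.4 FPKM in the controls and 22.7, 23.8 and 22.6 FPKM in the deficient libraries, a ratio of 2.04 and a log2 difference of -0.99 (SE 0.06). The ratio of *Ngp* to *Camp* differed accordingly, at 3.17 ± 0.0312 in the controls and 5.14 ± 0.120 in the deficient libraries (SD, n = 3). Both genes lie on chromosome 9, *Camp* (ENSMUSG00000038357) at 109847379 to 109849617 and *Ngp* (ENSMUSG00000032484) at 110419747 to 110423012.

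*Retnlg*, which encodes the secreted resistin-like gamma made by marrow granulocytes, went the other way. It was at 0.446, 0.878 and 0.623 FPKM in the controls and 4.58, 4.26 and 4.65 FPKM in the deficient libraries. The lowest deficient library was 4.85 times the highest control library, and the ratio of means was 6.93. The control level rests on only 5, 9 and 7 fragments, against 69, 57 and 72 in the deficient libraries. The log2 difference was 1.74 (SE 0.13), or 2.66 with 0.1 FPKM added. *Retnlg* (ENSMUSG00000022651) lies on chromosome 16, 48872621 to 48874496.

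The order of the levels, which depends on the transcript length behind each FPKM, differed between the genotypes. In the controls it ran *Lyz1*, *Ngp*, *Camp*, *Lyz2*, *Mpo*, *Prtn3*, *Elane*, *Ctsg*, *Ms4a3*, *Retnlg*, and in that order only *Mpo* and *Prtn3* overlapped as neighbors. In the deficient libraries it ran *Ngp*, *Lyz1*, *Camp*, *Lyz2*, *Retnlg*, *Prtn3*, *Elane*, *Mpo*, *Ms4a3*, *Ctsg*. There *Prtn3* overlapped with *Elane*, *Elane* with *Mpo*, and *Ms4a3* with *Ctsg*. *Ngp* thus stood first and *Retnlg* stood above all 4 azurophil genes.

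Other genes of the granulocyte program, 62 in 7 lists, of which 51 were listed and 33 tested, were examined next. In all, 13 were called higher and 13 lower and 7 were not called, beside 16.7% higher and 34.6% lower among all tested genes, with a median log2 fold change of -0.13 beside -0.10 across the tested genes. Under median-ratio scaling 14 were called higher and 9 lower. Whether the lists differ from each other was not tested.

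**Figure D2:**
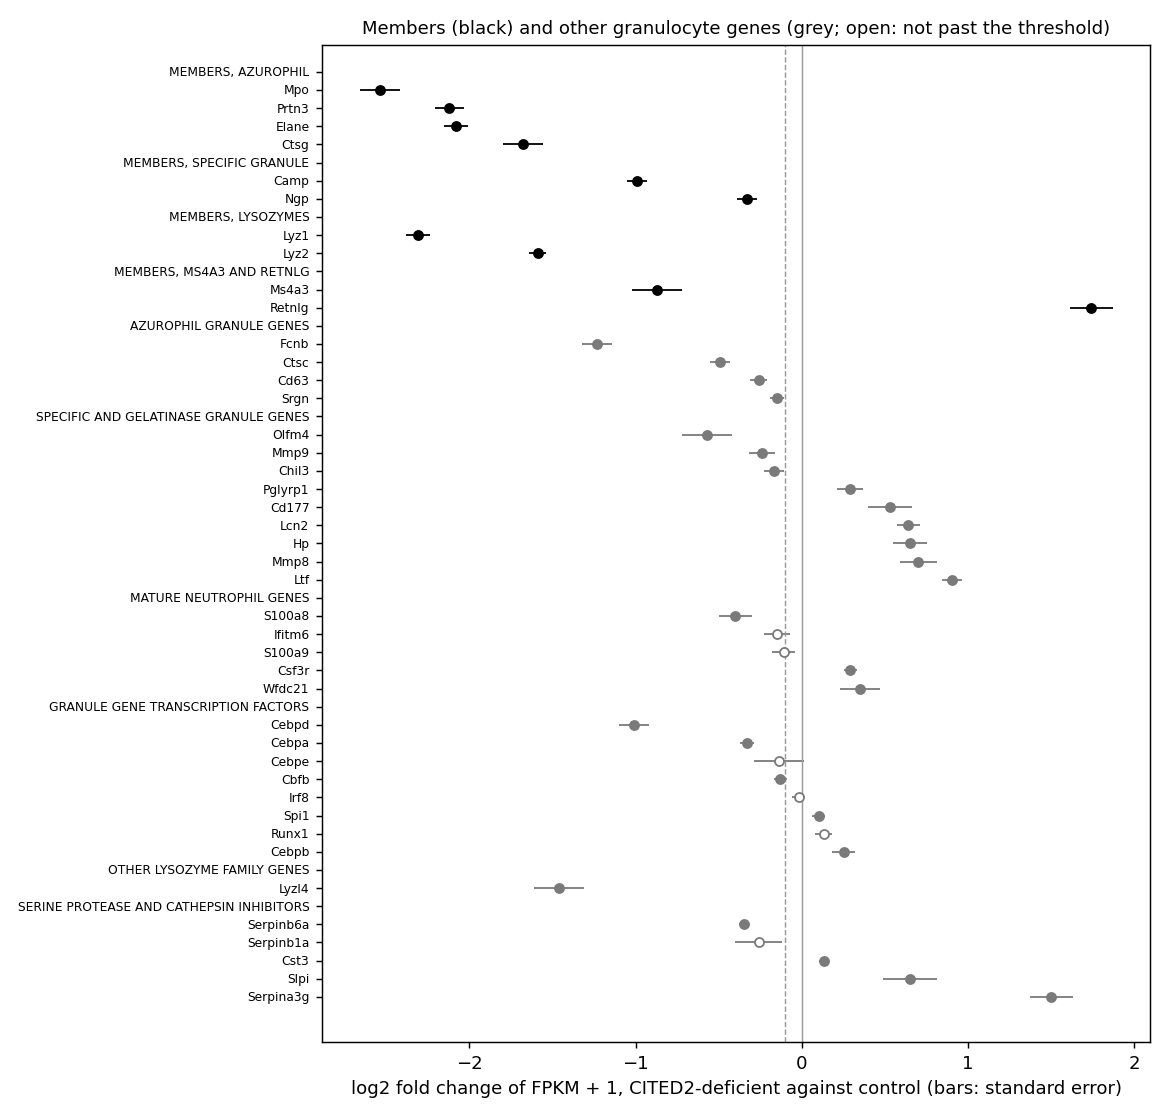
Log2 fold change of FPKM + 1 with its standard error for the 10 genes (black) and for 32 tested genes of the other lists (grey, open where not past the threshold, *Kit* of the progenitor list left out). The solid line is at 0 and the dashed line at the median of all tested genes, -0.10, and *Mpo* at -2.54 and *Retnlg* at 1.74 mark the ends.

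Of 4 further azurophil granule genes tested, all 4 fell, beside 34.6% of tested genes, with a median log2 fold change of -0.37 beside -0.10. *Prss57* and *Cst7* of this list were below the filter, and both overlapped between the groups. Their means were 0.360 and 0.315 FPKM in the controls and 0.227 and 0.480 FPKM in the deficient libraries. *Fcnb*, which encodes the pattern-recognition lectin ficolin B, was at 8.44, 7.36 and 7.17 FPKM in the controls and 2.55, 2.65 and 2.82 FPKM in the deficient libraries. Its log2 fold change was -1.23 (SE 0.09, limma adjusted p = 4.92e-06). *Ctsc* encodes the dipeptidyl peptidase that activates the granule serine proteases, and it fell from 474 ± 14.0 to 337 ± 28.8 FPKM (SD, n = 3, limma adjusted p = 8.12e-05). The smallest changes were those of *Cd63*, a granule membrane tetraspanin, and *Srgn*, the proteoglycan core that binds granule cargo, at -0.26 (limma adjusted p = 0.00158) and -0.15 (limma adjusted p = 0.00990). *Ctsc*, *Cd63* and *Srgn* are also expressed by macrophages. The call of *Srgn* was lost under median-ratio scaling.

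Of 9 specific and gelatinase granule genes tested, 6 rose and 3 fell, beside 16.7% and 34.6% of tested genes, with a median log2 fold change of 0.53. *Ltf*, which encodes the iron-binding protein lactoferrin, was at 99.8, 91.7 and 91.4 FPKM in the controls and 185, 185 and 162 FPKM in the deficient libraries. Its log2 fold change was 0.90 (SE 0.06, limma adjusted p = 1.99e-06). *Lcn2*, which encodes a siderophore-binding lipocalin, rose from 32.6 ± 1.73 to 51.6 ± 4.51 FPKM (SD, n = 3, limma adjusted p = 4.56e-05). *Hp*, the gene of haptoglobin, and *Mmp8*, the gene of neutrophil collagenase, rose by 0.65 and 0.70 on the log2 scale (limma adjusted p = 0.000591 for each). These genes sit in the same granule class as *Camp* and *Ngp*, which were lower. The ratio of *Ltf* to *Ngp* was 0.635 ± 0.0541 in the controls and 1.49 ± 0.0696 in the deficient libraries (SD, n = 3).

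The other called genes of this class were *Cd177* and *Pglyrp1*, which rose, and *Olfm4*, *Mmp9* and *Chil3*, which fell. Calls were lost when single libraries were left out for *Pglyrp1* (control replicates 2 and 3, deficient replicate 1), with a log2 fold change of 0.20 to 0.28 and an adjusted p of 0.0504 to 0.0532 in limma. The same held for *Mmp9* (control replicates 1 and 2, deficient replicates 1 and 3), at -0.25 to -0.15 with an adjusted p of 0.0776 to 0.130 in limma. *Chil3* lost its call without control replicate 1 or 2 or deficient replicate 3, at -0.16 to -0.12 with an adjusted p of 0.106 to 0.134 in limma.

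Of 11 mature neutrophil genes 5 were tested, of which 2 rose and 1 fell, beside 16.7% and 34.6% of tested genes. The other 2 were not called, and the median log2 fold change was -0.11. *S100a8*, a calcium-binding subunit of calprotectin, fell from 180 ± 9.64 to 138 ± 24.0 FPKM (SD, n = 3, limma adjusted p = 0.00942). Its partner *S100a9* was at 270 ± 14.2 and 251 ± 25.0 FPKM and was not called (limma adjusted p = 0.216). *Csf3r*, the receptor for granulocyte colony-stimulating factor, rose from 62.1 ± 0.595 to 76.0 ± 3.16 FPKM (SD, n = 3, limma adjusted p = 0.000252). *Wfdc21* was called higher, but not without control replicate 1 or 2 or deficient replicate 1 or 3, at 0.24 to 0.32 (limma adjusted p = 0.0974 to 0.128). Below the filter, *Cxcr2*, the neutrophil chemokine receptor, had 10, 10 and 12 fragments in the controls and 57, 56 and 64 in the deficient libraries, and *Il1r2* had 2, 4 and 1 against 14, 16 and 32. These 2 were chosen after their values were seen. *Ly6g*, which defines mature neutrophils, had 5, 0 and 5 fragments against 13, 8 and 5, so it was near 0 in both groups.

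Of 8 tested transcription factors of granule genes, 2 rose and 3 fell, beside 16.7% and 34.6% of tested genes. *Cebpd* was at 13.5, 15.5 and 16.8 FPKM in the controls and 6.95, 6.43 and 7.82 FPKM in the deficient libraries, with a log2 fold change of -1.01 (SE 0.09, limma adjusted p = 2.36e-05). *Cebpa*, needed for entry into the granulocyte path, fell from 120 ± 4.81 to 95.2 ± 1.54 FPKM (SD, n = 3, limma adjusted p = 7.43e-05), and *Cebpb* rose from 85.9 ± 2.96 to 103 ± 10.4 FPKM (limma adjusted p = 0.0105). *Cebpe*, the factor of specific granule genes, was at 2.30 ± 0.626 and 1.97 ± 0.255 FPKM and was not called (limma adjusted p = 0.481). *Spi1*, the gene of PU.1, was called higher and *Cbfb*, the partner of RUNX1, lower. The call of *Spi1* was lost without control replicate 1, 2 or 3 or deficient replicate 3 (0.06 to 0.11, limma adjusted p = 0.0729 to 0.108), and that of *Cbfb* without control replicate 2 or 3 or deficient replicate 1 or 2 (-0.12, limma adjusted p = 0.0520 to 0.0585).

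*Gfi1* and *Myb*, a repressor and an activator of early granulocyte genes, were below the filter and were named after their values were seen. *Gfi1* had 33, 36 and 42 fragments in the controls and 25, 15 and 20 in the deeper deficient libraries, a mean of 0.912 against 0.364 FPKM. *Myb* had 40, 30 and 37 against 25, 27 and 19 fragments, a mean of 0.787 against 0.394 FPKM. Neither gene overlapped between the groups. In the fit without a filter their log2 fold changes were -0.49 (limma adjusted p = 0.00652) and -0.36 (limma adjusted p = 0.0211). Of the 5 progenitor markers only *Kit* was tested. It was at 1.32 ± 0.0415 and 1.12 ± 0.155 FPKM (SD, n = 3, limma adjusted p = 0.417), *Flt3* at no more than 5 fragments in any library, and *Cd34* at 4, 8 and 1 against 9, 22 and 16 fragments. *Prom1*, at 0.507 ± 0.114 and 0.513 ± 0.0608 FPKM, overlapped between the groups. *Sox4* did not, with 29, 37 and 25 against 98, 58 and 90 fragments, a mean of 0.347 against 0.686 FPKM and a log2 fold change of 0.32 in the fit without a filter (limma adjusted p = 0.0431).

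Of the other lysozyme family genes only *Lyzl4*, a lysozyme-like gene, was listed. It stood at 3.05, 3.49 and 3.89 FPKM in the controls and 0.369, 0.831 and 0.719 FPKM in the deficient libraries, with a log2 fold change of -1.46 (SE 0.15, limma adjusted p = 4.60e-05). Since its deficient mean was 0.640 FPKM, it passed the filter through the controls, where it was high. Among 5 tested inhibitors of serine proteases or cathepsins, 3 rose and 1 fell, beside 16.7% and 34.6% of tested genes. *Serpinb1a*, at 5.58 ± 0.856 and 4.52 ± 0.989 FPKM (SD, n = 3), was not called (limma adjusted p = 0.153). *Serpina3g* rose from 1.04 ± 0.133 to 4.82 ± 0.909 FPKM (SD, n = 3, limma adjusted p = 1.86e-05) and *Slpi*, an inhibitor of elastase, from 3.40 ± 0.988 to 5.77 ± 0.441 FPKM (limma adjusted p = 0.00820). *Serpinb6a*, an inhibitor of cathepsin G, fell from 699 ± 7.66 to 549 ± 8.90 FPKM (SD, n = 3, limma adjusted p = 4.68e-06). The inhibitor *Cst3* had the smallest called change, 0.13 (limma adjusted p = 0.0121), and its call was lost without the filter and without the variance trend.

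The 2 nearest tested genes on each side of each member within 500 kb gave 30 different neighbors. Of these 6 were called higher and 12 lower, 60.0% beside 51.3% of all tested genes in either direction, with a median log2 fold change of -0.06 beside -0.10. Beside the lysozymes, *Yeats4* fell by 0.58 and *Cpsf6* by 0.42 on the log2 scale (limma adjusted p = 4.30e-05 and 0.000446). *Mdm2*, further off at 396 kb from *Lyz1*, rose by 0.52 (limma adjusted p = 2.56e-06). Beside *Mpo*, *Mks1* fell by 0.38 (limma adjusted p = 0.00315). Downstream of *Elane*, *Med16* fell by 0.34 (limma adjusted p = 0.000370), and upstream of *Prtn3*, *Misp* rose by 0.93 (limma adjusted p = 0.00150), having passed the filter through the deficient libraries, with means of 0.458 and 1.80 FPKM. The Ms4a genes on chromosome 19 did not move together, since *Ms4a6d* and *Ms4a6b* rose by 0.99 and 1.55 (limma adjusted p = 1.51e-08 and 1.16e-08) while *Ms4a3* was lower.

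A pair of genes at the *Elane* locus moved the same way as *Elane* and *Prtn3*. *Plppr3*, whose annotation overlaps that of *Prtn3* on the opposite strand, was at 3.46, 3.34 and 4.41 FPKM in the controls and 1.58, 1.84 and 1.51 FPKM in the deficient libraries (log2 fold change -0.84, SE 0.12, limma adjusted p = 0.000447). The libraries kept the strand, but no source used here says whether the counting used it. *Cfd*, which encodes complement factor D and starts 2.64 kb beyond *Elane*, had 67, 100 and 2 fragments in the controls and 1, 1 and 0 in the deficient libraries. Control replicate 3 thus stood near the deficient group, and the gene passed the filter through the other controls. Its call (log2 fold change -1.75, SE 0.57, limma adjusted p = 0.0306) was lost without control replicate 1 or any 1 of the 3 deficient replicates, at -1.76 to -1.49 (limma adjusted p = 0.0593 to 0.0956).

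**Figure D3:**
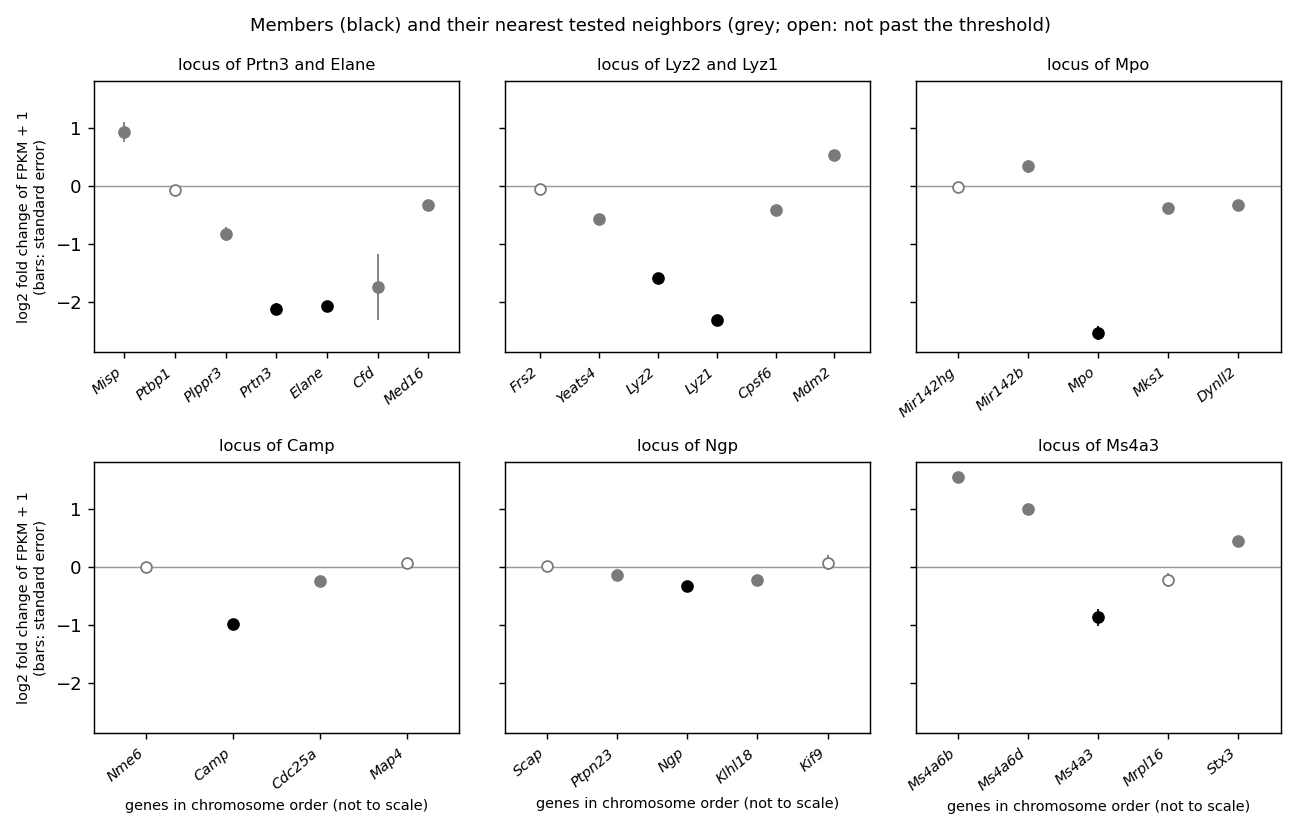
Log2 fold change of FPKM + 1 with its standard error for members (black) and their nearest tested neighbors (grey, open where not past the threshold) in chromosome order, at 6 loci, where the loci of *Ctsg* and *Retnlg* are not drawn. *Lyz1* at -2.31 and *Lyz2* at -1.59 lie below *Yeats4* at -0.58 and *Cpsf6* at -0.42.

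Markers of other cells moved between the genotypes as well. All 10 tested fibroblast or stromal markers of 12 rose, beside 16.7% of tested genes, with *Col1a1* at a mean of 15.4 and 143 FPKM. Their summed level was 72.2 to 87.3 FPKM in the controls and 278 to 750 FPKM in the deficient libraries. Deficient replicate 1 stood apart at 750 FPKM. Without deficient replicate 1 the log2 differences were close to those given above, -2.61 for *Mpo*, -2.07 for *Elane*, -2.11 for *Prtn3*, -2.34 for *Lyz1*, -1.56 for *Lyz2* and 1.73 for *Retnlg*. In that fit 11 pathway genes were called higher and 13 lower. The remaining deficient libraries still summed to 278 and 281 FPKM of stromal markers, so a stromal difference between the groups stayed in this fit. Of 8 monocyte markers 6 rose and 1 fell, beside 16.7% and 34.6% of tested genes. The monocyte markers summed to 232 to 250 and 235 to 256 FPKM. These near-equal sums hide opposite moves, since *F13a1* made up most of the control sum and fell while 6 markers rose. *Plac8* rose from 4.78 ± 2.00 to 65.4 ± 4.94 FPKM and *Ly6c2* from 7.71 ± 1.32 to 36.0 ± 2.59 FPKM, and *F13a1* fell from 178 ± 6.66 to 24.8 ± 0.899 FPKM (SD, n = 3, limma adjusted p = 9.28e-07, 3.30e-07 and 4.59e-10).

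Of 12 macrophage markers 8 fell and 1 rose, beside 34.6% and 16.7% of tested genes. Their sum was 12685 to 13048 FPKM in the controls and 10697 to 10912 FPKM in the deficient libraries. The largest changes were those of *Fcgr1*, which rose from 172 ± 0.793 to 482 ± 17.2 FPKM (SD, n = 3, limma adjusted p = 1.49e-09), and of *Itgam* and *Maf*. The latter had log2 fold changes of -0.81 and -0.79 (limma adjusted p = 1.77e-07 and 8.10e-08). *Cd68* was at 1654 ± 43.3 and 1717 ± 7.03 FPKM (SD, n = 3) and was not called (limma adjusted p = 0.116). The 10 granule and lysozyme genes together summed to 485 to 524 FPKM in the controls and 206 to 212 FPKM in the deficient libraries. Mature neutrophil markers summed to 530 to 564 and 474 to 558 FPKM, so their groups overlapped. Most of this sum came from *S100a8*, at means of 180 and 138 FPKM, and *S100a9*, at 270 and 251 FPKM. *Cxcr2*, *Ly6g* and *Il1r2* had means under 1 FPKM in both groups and hardly enter it. Eosinophil markers summed to 13.6 to 15.0 and 4.68 to 7.20 FPKM, and mast cell or basophil markers to 3.72 to 4.34 and 1.62 to 1.99 FPKM. B cell markers summed to 2.59 to 3.20 and 2.27 to 2.90 FPKM, erythroid markers, none of which was tested, to 0.376 to 1.51 and 0.204 to 0.282 FPKM, and megakaryocyte markers to 314 to 343 and 78.4 to 89.7 FPKM. All 3 tested eosinophil markers fell, beside 34.6% of tested genes. But the calls of *Ccr3* (without control or deficient replicate 3, at -0.31 to -0.29, limma adjusted p = 0.0668 to 0.0679) and *Ear2* (without control or deficient replicate 1 or 3, at -0.42 to -0.38, limma adjusted p = 0.0838 to 0.105) were lost. The megakaryocyte sum is carried by *Pf4*, a platelet chemokine gene, which fell from 320 ± 15.1 to 75.4 ± 4.58 FPKM (SD, n = 3, limma adjusted p = 3.19e-09). Neither the 1 tested mast cell or basophil marker nor the 1 tested B cell marker was called. The other tested megakaryocyte markers rose, *Ppbp* from 2.26 ± 0.710 to 4.17 ± 0.292 FPKM (SD, n = 3, limma adjusted p = 0.00623) and *Itga2b* from 2.90 ± 0.319 to 4.08 ± 0.707 FPKM (limma adjusted p = 0.0300), and *Itga2b* lost its call without control replicate 1 or 2 or deficient replicate 1 (0.26 to 0.38, limma adjusted p = 0.0625 to 0.103). The part of these cells in the levels of the granule genes and lysozymes was not tested.

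**Figure D4:**
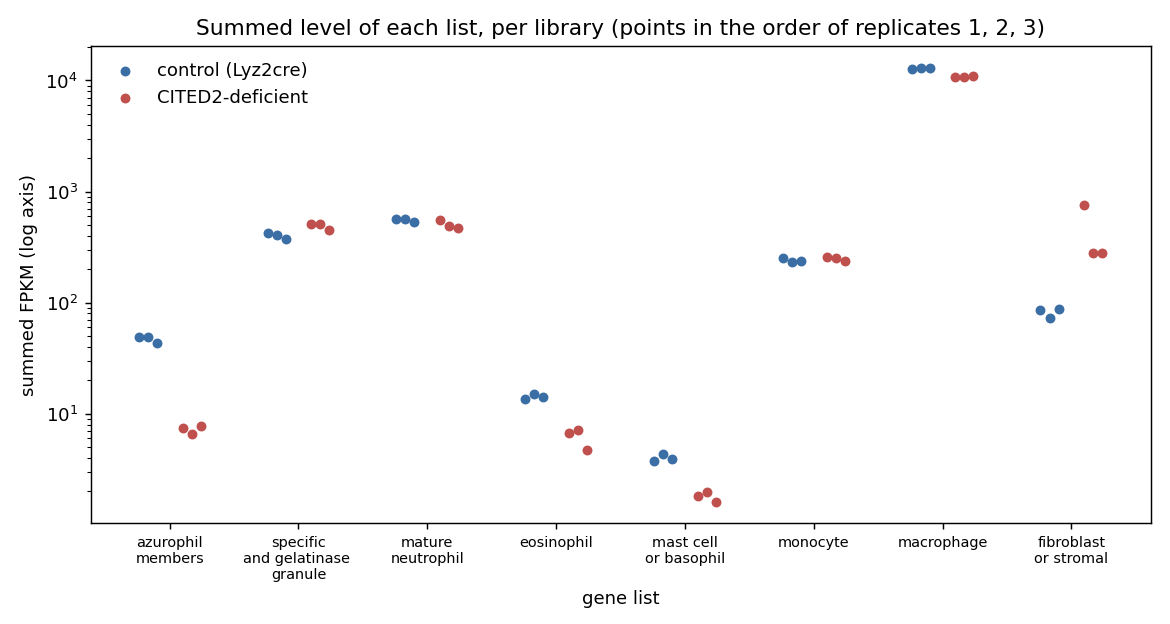
Summed FPKM per library (log axis) of the 4 azurophil genes and of marker lists, control in blue and CITED2-deficient in red. The azurophil sum lies at 43.5 to 49.0 against 6.61 to 7.71 FPKM, and deficient replicate 1 stands out at 750 FPKM in the stromal list. The mature neutrophil sums, which come mostly from *S100a8* and *S100a9*, overlap. So do the monocyte sums, in which *F13a1* fell while 6 of the 8 markers rose.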

How the data were processed

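RNA of 6 BMDM cultures, 3 *Lyz2cre* and 3 *Cited2 fl/fl:Lyz2cre*, was depleted of ribosomal RNA and sequenced with strand kept. The authors aligned reads with STAR to mm10 and deposited FPKM per gene and library from Cufflinks and Cuffdiff, per the labels; their versions were not stated in the sources used. FPKM divides by transcript length, so it carries no read number, and levels of different genes depend on the length used. With the mean length of each gene's transcripts in GENCODE vM21, whole fragments were sought. The FPKM of 21374 of 22239 matched genes (96.1%) gave them within 0.02 in all libraries, from which depth was taken. This length was 1299 bases for *Mpo* and 692 for *Prtn3*, whose longest coding transcripts have 2750 and 1025. Levels of such genes are thus not strictly comparable with each other. Deficient libraries were 1.34 times as deep on average. Log2(FPKM + 1) values of genes whose mean FPKM reached 1 were fitted with limma 3.58.1 (R 4.3.3, variance trend, no covariates), tested on simulated data. Calls used a Benjamini-Hochberg adjusted p of 0.05. The members and lists were chosen with earlier results of these data known. The text names all members, *Cited2*, up to 10 called neighbors and, per pathway list, up to 4 tested genes, mostly those with the largest change. From the marker lists it names some of the defining markers and up to 3 genes with large changes. Smaller changes are named where their calls were lost or to complete a list. Replicates of a group differed by more than counting error (mean chi-square per gene at least 2.26), so none was treated as a library deposited in duplicate. Alternatives changed the pseudocount, filter, scaling, variance trend and replicate block, left out each library, and, chosen after seeing the data, used limma-voom on recovered fragments.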

Additional observations from a re-analysis of the deposited data

How the results depend on the processing

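Over the 137 alternative values of the 10 members, none changed sign and 25 moved by more than the spread between replicates, chiefly under smaller pseudocounts and limma-voom. The log2 difference ranged from -3.03 to -2.46 for *Mpo*, -2.70 to -1.59 for *Ctsg*, -1.60 to -0.78 for *Ms4a3*, -2.38 to -2.22 for *Lyz1*, -0.39 to -0.23 for *Ngp* and 1.65 to 2.76 for *Retnlg*. Over all tested genes 4044 were called lower and 1950 higher. Median-ratio scaling gave 2576 lower, and the share of calls that were higher went from 32.5% to 50.5%, with the median of all genes at -0.013 in place of -0.10. Leaving out single libraries gave 3411 to 3698 lower and 1756 to 1860 higher, 10 to 13 pathway genes in each direction and 14 to 17 neighbors called. limma-voom, chosen after seeing the data, gave 3954 lower and 1904 higher.

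The replicate numbers are shared between the groups, and the labels do not say whether they pair the libraries. The deviations of same-numbered libraries correlated at 0.014, 0.008 and 0.04. These values show no shared effect of a number but cannot tell whether cultures were prepared in pairs. With the replicate number as a block, 3813 genes were lower and 1895 higher, 15 pathway genes lower and 13 higher, and 19 neighbors were called. Genes of few fragments, such as *Retnlg* in the controls and *Ctsg* and *Ms4a3* in the deficient libraries, have levels limited by depth.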

Other observations

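*Prg2*, which encodes eosinophil major basic protein, was at 6.25, 8.42 and 6.17 FPKM in the controls and 1.78, 1.06 and 0.457 FPKM in the deficient libraries (log2 fold change -1.96, SE 0.22, limma adjusted p = 8.40e-05). *Epx*, the eosinophil peroxidase gene related to *Mpo*, had 3, 5 and 4 fragments in the controls and 0 in each deficient library. *Prss34*, a basophil protease gene chosen after its values were seen, had a mean of 1.39 FPKM in the controls and 0.0105 FPKM in the deficient libraries. *Cpa3*, the mast cell carboxypeptidase gene, had 12, 11 and 18 against 7, 10 and 6 fragments. *Mcpt8*, a basophil protease gene, had 5, 12 and 4 against 5, 2 and 4 fragments. In the fit without a filter the limma adjusted p was 0.0152 for *Epx*, 5.15e-05 for *Prss34*, 0.0314 for *Cpa3* and 0.202 for *Mcpt8*. *Hdc*, the histamine synthesis gene and the only tested mast cell or basophil marker, was at 1.06 ± 0.135 and 1.28 ± 0.107 FPKM and was not called (SD, n = 3, limma adjusted p = 0.374). *Siglecf*, a surface receptor of eosinophils, overlapped between the groups at 0.842 ± 0.272 and 1.12 ± 0.454 FPKM (SD, n = 3).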
